A study of Saccharomyces cerevisiae and Neurospora crassa and Schizosaccharomyces pombe with 13 samples.

Results

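The quinic acid (qa) utilization cluster of the filamentous fungus Neurospora crassa was taken here as a run of 6 neighbouring genes on sequence 7 of the deposited annotation. Its members were taken by identifier: NCU06023 (qa-2), NCU06024 (qa-4), NCU06025 (qa-3), NCU06026 (qa-y), NCU06027 (qa-1S) and NCU06028 (qa-1F). All 6 were found, among 1047 genes on that sequence and 9730 in the whole annotation, and no other gene started between them. The deposited file gives identifiers alone, so the symbols are those that came with the list of members and could not be checked against it. Nor can the file show whether a gene next to the listed members belongs to the same pathway.

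Quinic acid is a plant compound that the fungus can use as a carbon source. The permease brings it into the cell, and 3 enzymes turn it stepwise into protocatechuate, which other enzymes then break down. Quinate dehydrogenase acts first, then dehydroquinase and last dehydroshikimate dehydratase. A regulator that activates transcription and one that represses it lie beside the genes they control, and quinic acid relieves the repression. The cluster is a textbook case of a fungal pathway whose genes lie together and are switched on together.

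The series holds 13 MNase-seq libraries of 3 fungi, in which micrococcal nuclease removes the DNA between nucleosomes. Of these, 2 are from N. crassa, labelled WT, made by the rapid protocol from conidia, the asexual spores, of which more than 70% had germinated. The conidia grew for 3.5 h in Vogel's solution with 1.5% sucrose and were fixed for 10 min in 1% formaldehyde, and the labels name no quinic acid in the medium. The other libraries, 10 of Saccharomyces cerevisiae (W303 WT, ISW2::KANMX and ISW2::URA3) and 1 of Schizosaccharomyces pombe (WT), were fixed in 1% formaldehyde too, but for 15 min, and digested with the same nuclease. Library footprints, their depth and expression were not analysed here. Nothing below is a nucleosome position or a transcript level. What follows describes the gene models on which footprints can be aligned, and no comparison between groups was made.

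The members occupied 15487 bp, from 2040689 to 2056175 on sequence 7, in NC12 coordinates. Read upwards in coordinate, the order was qa-1F (minus strand), qa-1S (plus), qa-y (plus), qa-3 (minus), qa-4 (plus) and qa-2 (minus). The 2 regulators thus stood at the low end, the permease next, and the 3 enzymes together at the high end. The identifier numbers ran against the coordinate, with NCU06028 lowest and NCU06023 highest. Each strand carried 3 members, and only qa-1S and qa-y were neighbours on the same strand. The cluster lay well inside the sequence, with 529 annotated genes below it and 512 above it.

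**Figure D1:**
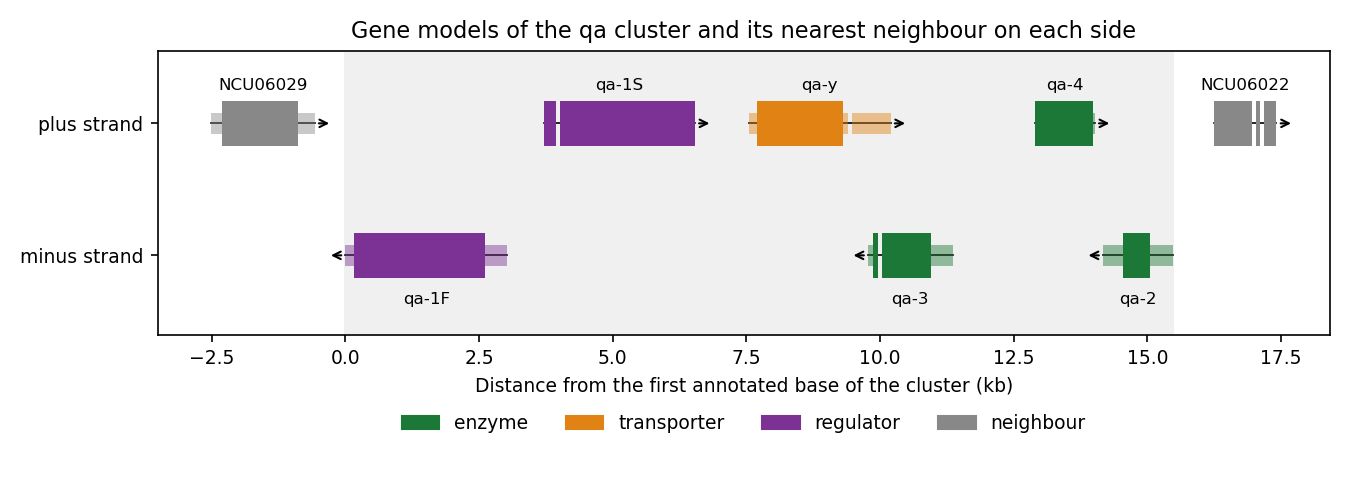
Gene models of the 6 qa genes (shaded stretch) and the nearest gene on each side, by strand, against distance in kb from the first annotated base of the cluster. Tall blocks are coding bases, low pale blocks are UTR exons, thin lines are introns, and arrows give the direction of transcription. The shaded stretch is 15.5 kb long, and the pale end of qa-y on the plus strand lies over the end of qa-3 on the minus strand.

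Of the enzyme genes, qa-3 encodes quinate dehydrogenase, which takes the first step. It ran from 2050464 to 2052045 on the minus strand, a span of 1582 bp. Its 5' UTR, the transcribed stretch before the coding region, was 403 bp, its coding length 1017 bp (339 codons, the stop codon left out) and its 3' UTR 84 bp. It is the enzyme gene with an intron, of 75 bp, from 2050653 to 2050727. That intron sat late in the coding region, after 915 of the 1017 coding bases and between whole codons. On sequence 7, 92.9% of the 1545 introns between coding exons lay at that relative place or earlier, and 36.2% lay between whole codons.

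The gene of the second enzyme, qa-2, encodes the catabolic dehydroquinase and was the member with the shortest coding region. It ran from 2054859 to 2056175 on the minus strand in a single exon of 1317 bp. Its coding length was 519 bp (173 codons), which is 39.4% of the span. Only 14.3% of the genes of sequence 7 had a coding region as short or shorter. The rest of the exon was the longest 5' UTR of the members, 431 bp, together with 364 bp of 3' UTR.

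The third enzyme gene, qa-4, encodes dehydroshikimate dehydratase. It ran from 2053590 to 2054705 on the plus strand in a single exon of 1116 bp, the shortest span of the cluster. Its coding length was 1077 bp (359 codons), or 96.5% of the span. It had no annotated 5' UTR, so its first annotated base is that of the start codon, and its 3' UTR was 36 bp. The 3 enzymes together held 871 codons, 27.7% of the coding bases of the cluster.

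The permease gene qa-y, whose product carries quinate across the membrane, ran from 2048234 to 2050885 on the plus strand, a span of 2652 bp. Its coding length was 1611 bp (537 codons) and its 5' UTR 144 bp, the shortest of those annotated in the cluster. Its 3' UTR was 825 bp, the longest of the cluster, and 92.2% of the genes of sequence 7 had one as short or shorter, genes without one included. An intron of 69 bp, from 2050091 to 2050159, lay within this 3' UTR. An intron after the stop codon was annotated in 35 genes of sequence 7, or 3.34%. The 39 such introns also had a median of 69 bp.

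The 2 regulator genes had the longest coding regions of the cluster. The activator gene qa-1F ran from 2040689 to 2043712 on the minus strand in a single exon of 3024 bp, the longest span of the members. It had a coding length of 2448 bp (816 codons), preceded by 419 bp of 5' UTR and followed by 154 bp of 3' UTR. The repressor gene qa-1S ran from 2044402 to 2047224 on the plus strand, a span of 2823 bp. Its coding length of 2754 bp (918 codons) was the longest of the cluster, and 89.7% of the genes of sequence 7 had one as short or shorter. It had neither UTR, so its model begins at the start codon and ends with the stop codon. Its intron of 66 bp, from 2044628 to 2044693, came early, after 226 of the 2754 coding bases and after the first base of a codon. Together the regulators held 1734 codons, 55.2% of the coding bases, against 537 codons (17.1%) for the permease.

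**Figure D2:**
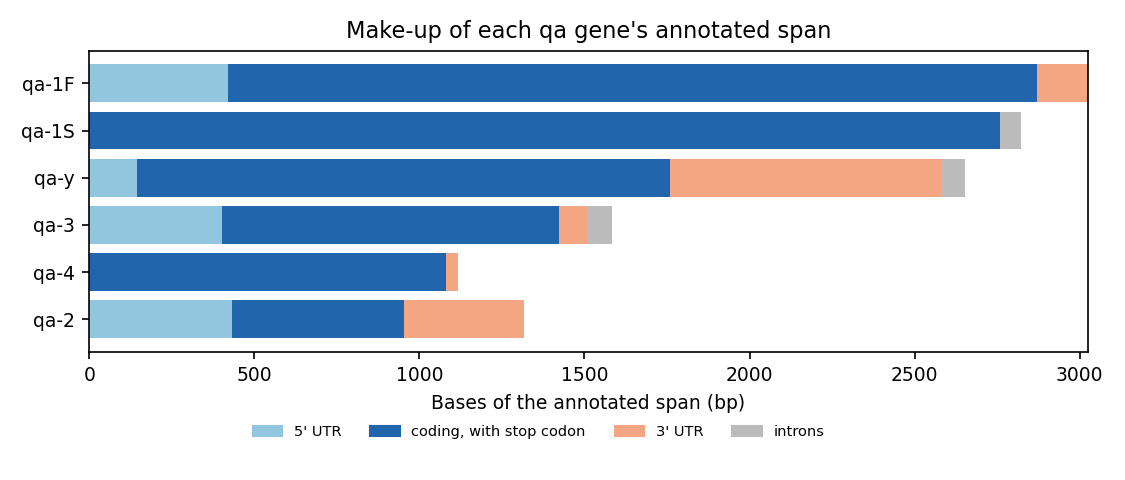
Bases of each qa gene's annotated span in bp, split into 5' UTR, coding bases with the stop codon, 3' UTR and introns, which are drawn at the end of the bar whatever their place in the gene. The regulators qa-1F and qa-1S have the longest coding blocks, qa-y has the longest 3' UTR (825 bp), and qa-1S and qa-4 have no 5' UTR.

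As a set the members were of ordinary size. Their spans had a median of 2117 bp (1116 to 3024 bp), against 2034 bp over sequence 7 and 2129 bp over all 9730 genes. Their coding lengths had a median of 1344 bp (519 to 2754 bp), against 1269 bp and 1260 bp. A 5' UTR was annotated for 4 of the 6 members, against 75.1% of the genes of sequence 7 and 78.7% of all genes. Those 4 had a median of 411 bp, with 3 of them between 403 and 431 bp, against 298.5 bp (quartiles 163 and 546 bp) over the annotated 5' UTRs of the sequence. A 3' UTR was annotated for 5 members, against 76.9% and 80.1%, with a median of 154 bp (36 to 825 bp) against 327 bp (quartiles 201 and 513 bp). Neither UTR was annotated for 1 member, qa-1S, against 19.7% and 16.9%. All 6 members had 1 transcript, as did 91.7% of the genes of the sequence and 90.8% of all genes. With 6 genes and no replicates these shares and medians are descriptions, and none was tested.

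The facing starts in the cluster are those of the regulators and those of a pair of enzyme genes. Neighbours are called divergent where their starts face each other. Where the spans do not overlap, the gap between them lies before both starts. Promoters were not mapped here. The regulators qa-1F and qa-1S were divergent, with 689 bp between their annotated starts, from 2043713 to 2044401. Among the 265 divergent pairs of sequence 7, whose median gap was 814 bp (quartiles 388 and 1682 bp), 43.8% had a gap as short or shorter. The enzyme genes qa-3 and qa-4 were divergent as well, with 1544 bp between them, from 2052046 to 2053589, the longest gap of the cluster. Of the divergent pairs, 71.7% had a gap as short or shorter. Both gaps lay between the quartiles.

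Each of these stretches ends at a start codon on one side. In the regulator pair that is the start codon of qa-1S, and in the enzyme pair that of qa-4, the genes with no annotated 5' UTR. Between start codons, with the UTR of the partner counted in, the distances were 1108 bp for the regulators and 1947 bp for the enzymes, against a median of 1544 bp over the sequence. On that measure 32.7% and 63.5% of the divergent pairs lay as close or closer. Among the 67 divergent pairs of the sequence with 1 annotated 5' UTR the middle gap was 1384 bp long (quartiles 655 to 2002 bp). Of these pairs, 26.9% had a gap no longer than that of the regulators and 58.2% no longer than that of the enzymes.

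A further divergent pair joined the listed members to the next gene above. The start of qa-2 faced that of NCU06022, on the plus strand from 2056938 to 2058103, across 762 bp (2056176 to 2056937). NCU06022 had 3 exons, a coding length of 1020 bp (340 codons) and neither UTR, and the start codons of the pair were 1193 bp apart. A gap as short or shorter was found in 47.2% of the divergent pairs of the sequence. In each of the 3 divergent gaps that touch members, a gene with a 5' UTR of 403 to 431 bp faced a gene with none annotated. In the last of these the gene with none, NCU06022, is not a listed member. Of the 265 divergent pairs of the sequence, 67 likewise had a 5' UTR annotated for a single gene of the pair. Lengths of 403 to 431 bp lie between the quartiles of its annotated 5' UTRs, 163 and 546 bp. Whether the likeness exceeds chance was not tested.

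The ends that face each other lay closer. Neighbours are called convergent where their ends meet. The enzyme genes qa-4 and qa-2 were convergent with 153 bp between them, from 2054706 to 2054858. Among the 264 convergent pairs of sequence 7, with a median gap of 188.5 bp, 48.5% had a gap as short or shorter. Their facing 3' UTRs were 36 and 364 bp, and between coding regions 553 bp remained. At the low end of the cluster, qa-1F converged on NCU06029, which is on the plus strand from 2038175 to 2040112, with 576 bp between them.

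The permease and the dehydrogenase genes overlapped at their ends. The spans of qa-y and qa-3 shared 422 bp, from 2050464 to 2050885, on opposite strands. Overlap was annotated in 97 of the 264 convergent pairs of the sequence (36.7%), with a median of 192 bp (quartiles 100 to 483 bp), and 72.2% of these overlaps were as short or shorter than that of qa-y and qa-3. The coding regions did not meet: 556 bp lay between them. The 3' UTR of qa-y crossed the whole of the 84 bp 3' UTR of qa-3 and ran on into its coding region. There it covered 260 coding bases, 25.6% of the coding length of qa-3, and the 75 bp intron. No exon of qa-3 reached into the coding bases of qa-y. An exon that reaches into the partner's coding bases was annotated in 48 convergent pairs of the sequence, or 18.2%, which is 49.5% of the overlapping ones. Reads without strand cannot be told apart in such a stretch. MNase-seq footprints have no strand of transcription, so the final 3' stretch of qa-y and the coding end of qa-3 are the same DNA in any profile aligned on either gene.

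The remaining pair, qa-1S and qa-y, lay in tandem on the plus strand with 1009 bp between them, from 2047225 to 2048233. This gap ends at the annotated start of the permease gene. Of the 517 tandem pairs of the sequence, with a median gap of 779 bp (quartiles 374 and 1647 bp), 59.2% had a gap as short or shorter. The stop codon of qa-1S and the start codon of qa-y were 1153 bp apart.

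**Figure D3:**
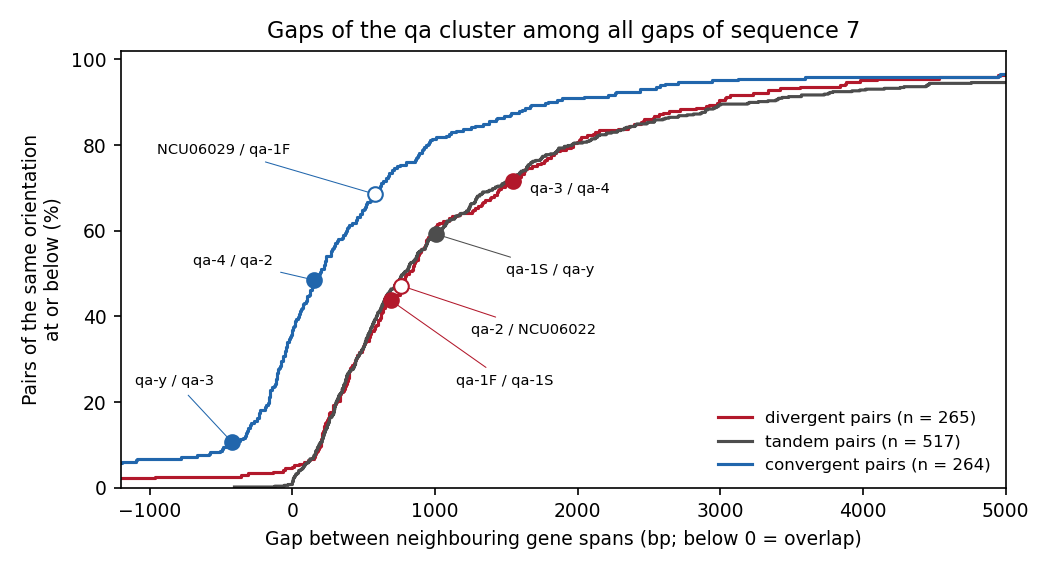
Cumulative share of the neighbouring gene pairs of sequence 7, by orientation, with a gap at or below the value on the x axis in bp (below 0 means overlap; pairs outside -1200 to 5000 bp are counted but lie off the axis). Filled points are the 5 gaps inside the qa cluster and open points the gaps to the neighbouring genes. The points lie between 43.8% and 71.7% of their curves, except that of qa-y and qa-3 at 10.6% of the convergent pairs.

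The room before each start followed from these gaps. Free of other genes were the 689 bp before the starts of qa-1F and qa-1S and the 762 bp before that of qa-2. So were the 1009 bp before the start of qa-y and the 1544 bp before those of qa-3 and qa-4. The median of the 6 was 885.5 bp, against 822.5 bp (quartiles 402 and 1712 bp) over the 1020 genes of the sequence whose start lay outside other genes. For qa-1S and qa-4, as for every gene with no annotated 5' UTR, the start is the start codon. Both kinds of start are pooled in these values. The 1000 bp before the start were free of other genes for 3 members, qa-y, qa-3 and qa-4, against 40.5% of the genes of sequence 7. Divergent members share this room, so the 6 values come from 4 stretches of DNA.

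The cluster as a whole was set against every window of 6 consecutive genes on sequence 7, of which there were 1042. Neighbouring windows share genes, so the windows are not independent, and their shares are a description with no test. The cluster was rather short: 264 windows (25.3%) were as short or shorter, and the median window measured 18830 bp (quartiles 15447 and 23129 bp). Averaged over the 7 sequences, 20.6% ± 2.70 (SD, n = 7 sequences) of windows were no longer than the cluster. Bases covered by none of its genes came to 3395, or 21.9% of its length, against a median of 28.3% (quartiles 19.0% and 40.1%).

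The median of the 5 gaps, 689 bp, stood near the middle, with 56.3% of windows at or below it and a median window of 626.5 bp. The mean gap, 594.6 bp with the overlap counted below 0, was lower in rank, with 26.6% of windows at or below it. The longest gap in the cluster was 1544 bp. In the median window it was 2402 bp, and 27.1% of windows had a longest gap as short or shorter.

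The strands alternated along most of the cluster. Strand changed at 4 of the 5 steps between members, where 50.6% of all neighbouring pairs of the sequence are on opposite strands. At least 4 changes were found in 214 windows (20.5%), and the median window had 3. The cluster held 2 divergent, 2 convergent and 1 tandem pair. The same order of strands, read from either end, was found in 39 windows of the sequence, the cluster included, or 3.74%, and in 420 of the 9695 windows of all sequences, or 4.33%. Over the 7 sequences, 27.0% ± 3.12 (SD) of windows had as many changes.

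Introns were few. The 6 members held 3 introns, 1 each in qa-1S, qa-y and qa-3, and a single exon was annotated for the other 3, against 19.7% of the genes of sequence 7 and 18.4% of all genes. The median window had 9 introns (quartiles 7 and 12), and 34 of the 1042 windows (3.26%) had 3 or fewer. Among windows that do not overlap each other it was 5 of 174 (2.87%), and over the 7 sequences 2.05% ± 0.642 (SD). Counted per coding base the place was lower still: the cluster had 0.318 introns per kb of coding bases, against a median of 1.05 (quartiles 0.752 and 1.50), and 13 windows (1.25%) had as few. The introns themselves were of usual length, 66, 69 and 75 bp, against a median of 75 bp over the 1698 introns of the sequence. The count does depend on where the cluster is taken to end. With NCU06022 and its 2 introns added, 7 genes held 5 introns, and 67 of 1041 windows of 7 genes (6.44%) had as few. With NCU06029, which has none, 7 genes held 3, and 16 of 1041 windows (1.54%) had as few.

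**Figure D4:**
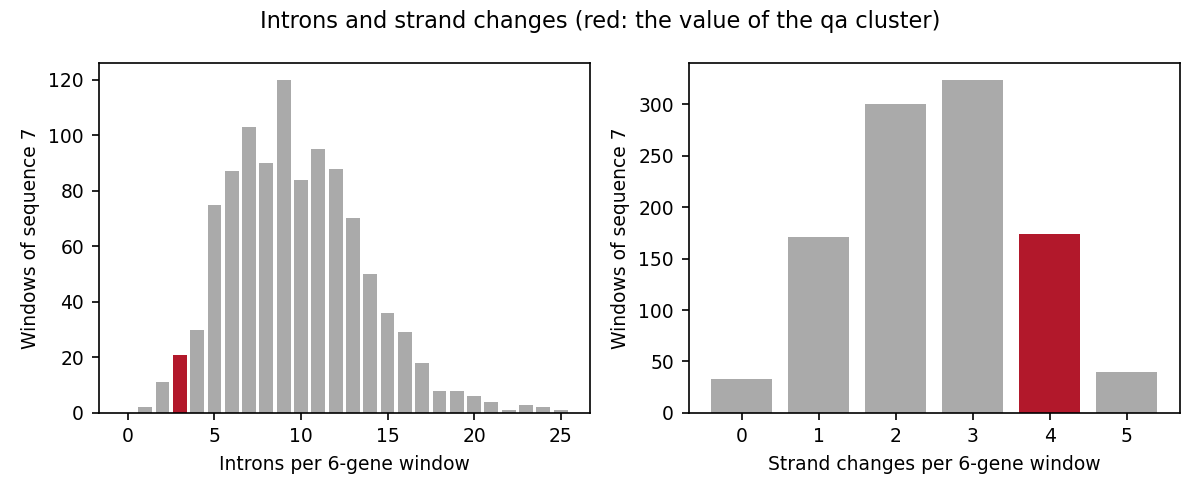
Number of windows of 6 consecutive genes on sequence 7, of 1042 in all, by introns per window (left) and by changes of strand between neighbours (right), with the value of the qa cluster in red. The cluster's 3 introns lie in the low tail, with 34 windows at or below, and its 4 strand changes are shared or exceeded by 214 windows.

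Much of the cluster was coding. Coding bases came to 9426, or 60.9% of its length, and the median window had 47.1% (quartiles 38.4% and 54.1%). As high a share or higher was found in 8.45% of windows, while 91.7% had a share no higher than that of the cluster. The coding bases themselves were near the middle, with 63.9% of windows at or below 9426. Over the 7 sequences 8.75% ± 1.27 (SD) of windows had as high a share. Length, introns and coding share are tied by construction, since introns and gaps add to the length and not to the coding bases. The UTRs missing from qa-1S and qa-4 change neither length nor coding share, because both genes lie inside the cluster.

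**Figure D5:**
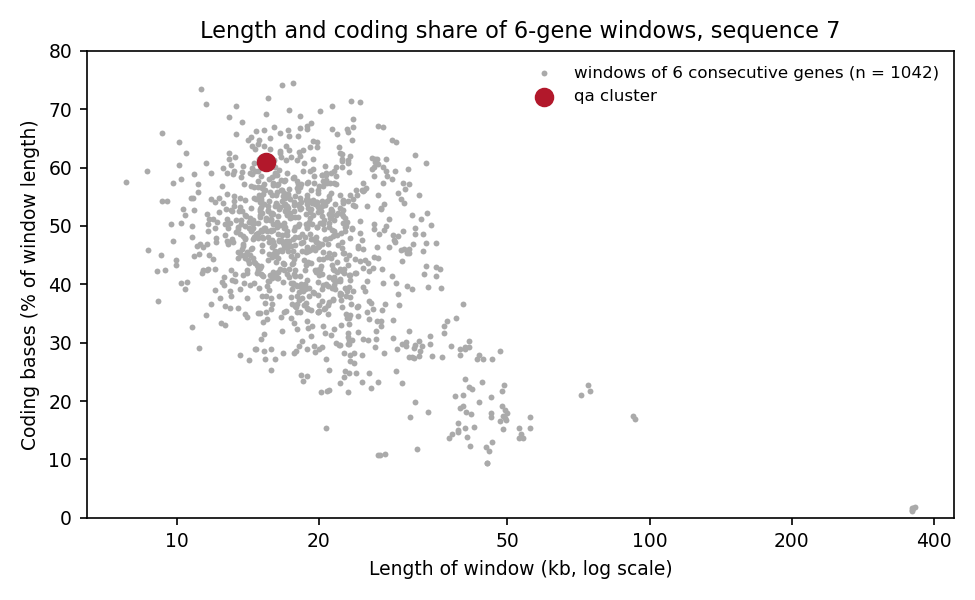
Coding bases as a percentage of window length against window length in kb (log scale), for the 1042 windows of 6 consecutive genes on sequence 7 (grey) and the qa cluster (red). The cluster lies at 15.5 kb and 60.9%, with 8.45% of all windows at or above its coding share.

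The windows most like the cluster were picked by the same order of strands and the nearest total length. The nearest ran from NCU06893 to NCU06898 and measured 15479 bp, 8 bp less than the cluster. It also had 3 introns, but its coding share was 51.0% and its longest gap 3401 bp. The next, from NCU11411 to NCU09284, measured 15690 bp and had 11 introns, a coding share of 39.1% and 3 overlapping pairs. The third, from NCU12021 to NCU06166, measured 15804 bp and had 6 introns and a coding share of 49.1%. These 3, of the 38 other windows with this order of strands, ranged from 3 to 11 introns. All 3 had a lower coding share, where 91.7% of all windows of the sequence had a share no higher than that of the cluster.

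The genes around the cluster were not set apart from it by long gaps. Below it, NCU06029, NCU06030 and NCU06031 were all on the plus strand, with 1938, 4900 and 2006 bp of span. Above it, NCU06022 (plus), NCU06021 (minus) and NCU06020 (plus) went on with alternating strands, with 1166, 2055 and 1904 bp of span. The gaps at the borders of the list, 576 and 762 bp, were shorter than the 1009 and 1544 bp inside it. They were longer than the 153 bp inside it and than the overlap of 422 bp. The 689 bp gap of the regulators lay between them. Among pairs of the same kind, the convergent border gap of 576 bp was wider than both convergent gaps inside. Of the convergent pairs of the sequence, 68.6% had a gap as short or shorter. The divergent border gap of 762 bp lay between the divergent gaps inside, 689 and 1544 bp. Neither border gap was the longest, so gap length without regard to orientation does not mark the ends of the list. Whether the pathway's genes end there too was not tested. With both border genes the stretch was 19929 bp. The nearest gap over 10000 bp began 19.8 kb above the cluster, between NCU11300 and NCU02461, and measured 29219 bp. The longest gene-free interval of the sequence began 78.9 kb above the cluster, with 20 genes in between.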

How the data were processed

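The authors' deposited file is a gene annotation of N. crassa (NC12 gene calls, strain OR74A, per its source field and file name; 81022 records, 0 with a score) and belongs to no library. Its values are first and last bases, counted from 1; the sources used here do not say what had been corrected in it. A gene's span covers all its transcripts. Exons, UTRs and introns are those of the longest transcript by exonic length; the stop codon was counted neither as coding length nor as UTR. Genes were ordered by start, and gaps are the bases between consecutive spans. Windows are all runs of 6 consecutive genes. An annotation has no replicates, so ranks are descriptions and no comparison of the cluster was tested; SDs are over the 7 sequences. Dixon's ratio was used to look for a sequence that stands apart in 6 window summaries. The calculations, in Python 3.11.15 with NumPy 2.4.6, SciPy 1.17.1 and matplotlib 3.10.9, were checked on a made-up annotation of known structure with overlaps, UTRs and introns. The members and measures were chosen with earlier results of these data known. The named genes are the members, 3 neighbours on each side and the 3 windows most like the cluster. No sequence is shown, as a genome of N. crassa was not used here. Alternatives used coding spans, other windows, other transcripts and added neighbours.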

Additional observations from a re-analysis of the deposited data

Results flagged for a closer look

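Of 6 window summaries compared over the 7 sequences by Dixon's ratio, the gap to the nearest value over the whole range, 1 stood apart from the other sequences (ratio 0.603, above Dixon's 95% critical value). The share of windows with at least 4 strand changes was 20.5% on sequence 7, where the qa cluster lies, against 26.3% on the next lowest sequence and up to 30.1% on the highest. Chance marks about 1 in 20 such sets, and 6 were checked. The 6 summaries are not independent, and the shares among them are cut at the cluster's own value. That rate is therefore only a rough guide. The 4 strand changes of the cluster are thus matched by a smaller share of windows on its own sequence than on any of the other sequences.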

How the results depend on the processing

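No paired analysis was possible because the libraries gave no values here. Of 47 alternatives over 15 results, 26 stayed within the 95% binomial interval of a share, within 1.5 times a count, or at the same value. The other 21 moved. Windows share genes, so for shares of windows this interval is a cut-off for sorting and does not measure their spread. A length, a count or a share has no direction, so the count of 0 reversed is no sign of stability. The cluster measured 14902 bp between coding regions, 18001 bp with NCU06029, 17415 bp with NCU06022 and 19929 bp with both. The share of windows no longer than it, 25.3%, became 20.5% over all sequences, 28.6% without windows holding a gap over 10000 bp, 22.0% and 17.9% with the neighbour below or above, and 15.6% with both. The median gap of 689 bp became 1108 bp between coding regions and 594.6 bp as a mean. The share of windows with a median gap no longer fell from 56.3% to 37.5% between coding regions. The cluster thus passed from above to below the middle window. The gene-free share of 21.9% became 35.7% there. Over all sequences, 27.4% of windows had as many strand changes and 1.95% as few introns. With NCU06029 added the latter was 1.54%, and with NCU06022 it was 6.44%. For the divergent gaps, the shares at or below were 32.7% (regulators) and 63.5% (enzymes) between coding regions, and 26.9% and 58.2% among pairs with 1 annotated 5' UTR. That last choice, the larger windows for introns and coding share, and the windows without overlap for those 2 measures were added after seeing the data. Counting fewer bases as genes lengthens gaps by construction; the cause of the other changes was not tested. No limit of depth applies to an annotation.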
